A study of Mus musculus with 4 samples.

Results

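The imprinted Dlk1-Dio3 region of mouse chromosome 12 carries one of the densest groups of microRNA (miRNA) genes in the mouse genome, and 8 mature miRNAs from it are described here in macrophages. They were chosen by name: mmu-miR-127-3p, mmu-miR-434-3p, mmu-miR-379-5p, mmu-miR-411-5p, mmu-miR-381-3p, mmu-miR-382-5p, mmu-miR-541-5p and mmu-miR-409-3p, written below without the species prefix. They are 8 of the 847 rows of the count table. The small RNA of sorted macrophages was sequenced, from C57BL/6J mice with an age of 6 to 8 weeks on the labels. AML spleen and AML bone marrow (BM) macrophages came from mice 18 days after they received GFP+ MLL-AF9 acute myeloid leukaemia (AML) cells without irradiation, and normal spleen and normal BM macrophages came from mice labelled normal. Each of the 4 groups is 1 library, so differences are between single libraries and have no replicates behind them. The sources used here give neither the number of mice behind a library nor the markers of the sort.

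In this region the protein-coding genes Dlk1, Rtl1 and Dio3 are expressed from the paternal chromosome, whereas the long noncoding RNAs Meg3, Rian and Mirg and nearly all of the miRNAs are expressed from the maternal one. The miRNAs are processed from long maternal transcripts that run through the region in one direction. They are known chiefly from the embryo, the placenta, the brain and mesenchymal cells, and within the blood system from haematopoietic stem cells. A mature miRNA pairs with target mRNAs mainly through its seed, bases 2 to 8 from the 5′ end.

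The mature sequences of the members are shown because they define what each row counts. They are RefSeq entries on GRCm38.p6, all 8 were matched by name, and capitals mark the seed.
miR-127-3p: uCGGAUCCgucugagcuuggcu
miR-434-3p: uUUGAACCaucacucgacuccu
miR-379-5p: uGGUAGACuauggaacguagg
miR-411-5p: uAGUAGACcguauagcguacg
miR-381-3p: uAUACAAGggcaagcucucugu
miR-382-5p: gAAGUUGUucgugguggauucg
miR-541-5p: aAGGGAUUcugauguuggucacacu
miR-409-3p: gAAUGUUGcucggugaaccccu

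No 2 members share a seed. The seeds of miR-379-5p and miR-411-5p differ by the single substitution G2A, counted from the 5′ end with the miR-379-5p base first. The seed of miR-379-5p is also that of miR-1193-5p, and the seed of miR-411-5p is also that of miR-7229-5p. The other 6 seeds were found in no other mature mouse miRNA of the RefSeq table. A close relative of miR-381-3p is miR-300-3p, which is identical at 19 of 22 positions and differs within the seed by A4G.

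By position the members fall into 2 groups that lie within 150.4 kb of each other. The hairpins of miR-127 (chr12:109592846-109592915) and miR-434 (chr12:109594506-109594599) are on the plus strand, opposite the coding sequence of Rtl1, a retrotransposon-derived gene needed in the placenta, and both miRNAs are known to direct cleavage of the Rtl1 transcript. The remaining 6 lie in the cluster that runs from miR-379 to miR-410. There, miR-379 (chr12:109709060-109709125), miR-411 (chr12:109710175-109710256) and miR-381 (chr12:109726822-109726896) lie upstream of Mirg as GENCODE M21 annotates it. The hairpins of miR-541 (chr12:109742409-109742498) and miR-409 (chr12:109743158-109743236) lie in introns of Mirg, and that of miR-382 (chr12:109733771-109733846) partly overlaps an exon. For the 2 members with the most reads the hairpins are printed with both listed arms in capitals, the 5p arm first.
Mir127: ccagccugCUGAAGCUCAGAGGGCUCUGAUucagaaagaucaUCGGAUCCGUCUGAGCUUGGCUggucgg
Mir381: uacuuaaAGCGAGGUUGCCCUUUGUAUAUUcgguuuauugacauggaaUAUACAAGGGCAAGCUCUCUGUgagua

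The libraries held 180227 counts in AML spleen, 271209 in AML BM, 435492 in normal spleen and 206652 in normal BM. The 8 macrophage and myeloid miRNAs listed had reads in every library and together made up between 3.11% and 4.64% of a library. Most of these reads were miR-21a-5p, which many cell types express and which held 82.2% of the list in AML spleen, 78.7% in AML BM, 32.4% in normal spleen and 91.0% in normal BM. Without it the list made up 0.825% of AML spleen, 0.660% of AML BM, 2.47% of normal spleen and 0.385% of normal BM. For miR-142a-3p, found in most blood cells, the level was 1311 CPM in AML spleen, 606 CPM in AML BM, 4346 CPM in normal spleen and 149 CPM in normal BM. In the same list miR-223-3p, a defining miRNA of myeloid cells, had only 4 reads in AML spleen, 12 in AML BM, 28 in normal spleen and 10 in normal BM. The other arm of its hairpin, miR-223-5p, had 10 reads in AML spleen, 149 in AML BM, 36 in normal spleen and 42 in normal BM. Levels below are counts per 1000000 reads of the TMM-scaled library (CPM), with no length term, since the members are 21 to 25 bases long. Intervals are 95% intervals of counting error only. The sources describe no molecular identifiers, so reads need not be independent molecules, and the intervals do not measure variation between mice or library preparations.

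Together the members were a small part of every library, and most of their reads were miR-127-3p and miR-381-3p. Pooled, they had 286 reads in AML spleen, 223 in AML BM, 131 in normal spleen and 219 in normal BM. This was 0.159% of the AML spleen library, 0.0822% of AML BM, 0.0301% of normal spleen and 0.106% of normal BM. Over the 4 libraries, miR-127-3p held 61.0% of the 859 pooled reads, and with miR-381-3p 81.1%. By reads, miR-127-3p stood at rank 85 in AML spleen, 113 in AML BM, 153 in normal spleen and 92 in normal BM. Only these 2 members reached 30 reads in any library, and 3 members had no read in at least 1 library. All 8 were detected in normal spleen, the deepest library, against 6 in AML spleen, 7 in AML BM and 6 in normal BM.

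**Figure D1:**
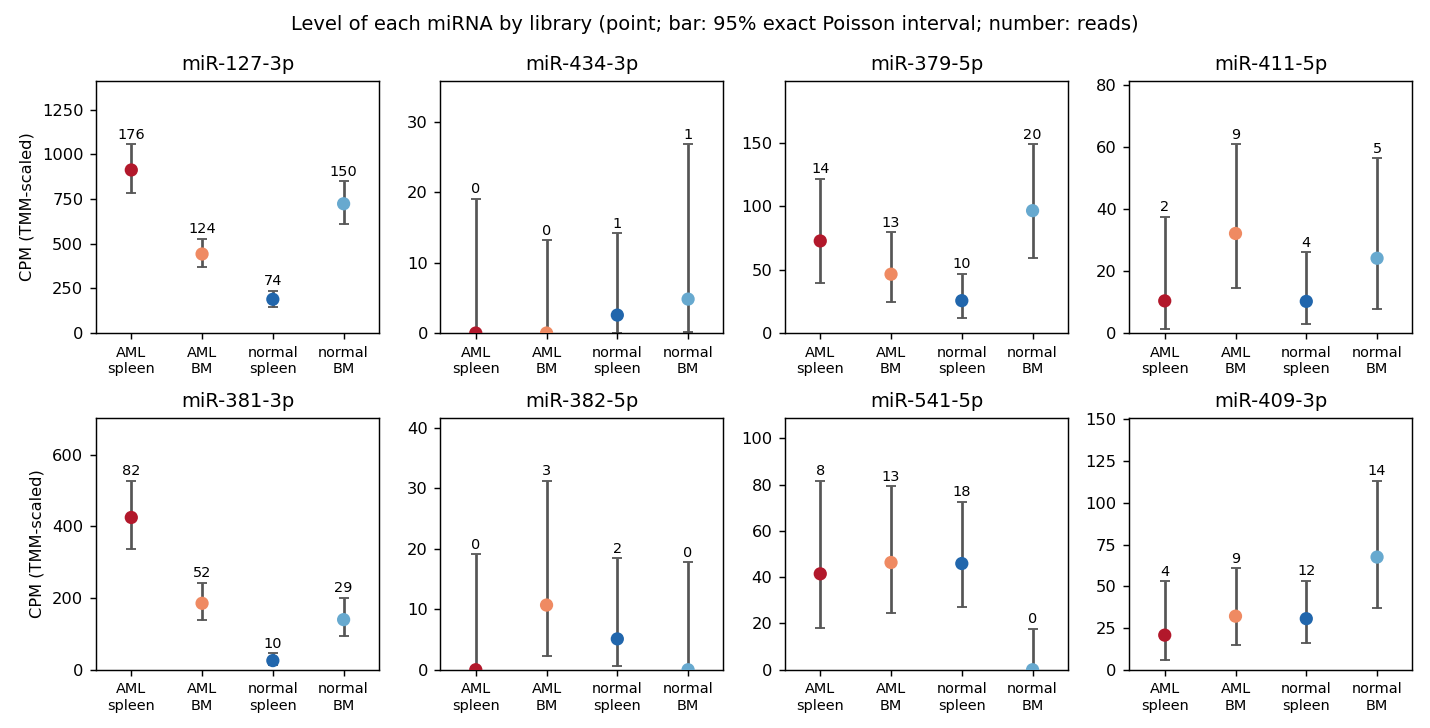
Level of each of the 8 members (CPM of the TMM-scaled library, linear axes that differ between panels) in the 4 libraries, with 95% exact Poisson intervals and the read count above each point. The AML spleen library is highest for miR-127-3p (176 reads) and miR-381-3p (82 reads), while the other 6 members have at most 20 reads in any library.

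The miRNA opposite Rtl1 with the most reads, miR-127-3p, had 176 reads in AML spleen, 124 in AML BM, 74 in normal spleen and 150 in normal BM. Its level was 912 CPM [782 to 1057] in AML spleen, 442 CPM [368 to 527] in AML BM, 189 CPM [148 to 237] in normal spleen and 723 CPM [612 to 849] in normal BM. The order was thus AML spleen, normal BM, AML BM and normal spleen, and each neighbouring pair differed beyond counting error, the first pair narrowly at a log2 ratio of 0.33 [0.01 to 0.66].

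Its neighbour miR-434-3p was nearly absent, with 0 reads in AML spleen, 0 in AML BM, 1 in normal spleen and 1 in normal BM. Entered as 3 reads, a count of 0 would be 15.5 CPM in AML spleen and 10.7 CPM in AML BM. The interval of a 0 reaches 19.1 CPM in AML spleen and 13.2 CPM in AML BM. The opposite arm, miR-434-5p, held more reads, with 26 in AML spleen, 2 in AML BM, 6 in normal spleen and 3 in normal BM. With fewer than 30 reads it was not called, and its log2 ratio was 3.14 [1.83 to 4.71] in AML spleen against normal spleen and 4.24 [2.24 to 7.36] in AML spleen against AML BM. The hairpin is printed to show both arms, in capitals with the 5p arm first.
Mir434: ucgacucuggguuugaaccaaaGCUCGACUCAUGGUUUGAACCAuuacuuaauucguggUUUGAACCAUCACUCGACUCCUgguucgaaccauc

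For miR-127 the 3p arm held more reads, with 12 reads of miR-127-5p in AML spleen, 5 in AML BM, 3 in normal spleen and 7 in normal BM. Per 100 reads of miR-127-3p these were 6.82 in AML spleen, 4.03 in AML BM, 4.05 in normal spleen and 4.67 in normal BM. The 4 intervals overlapped.

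In the miR-379 to miR-410 cluster, miR-381-3p had 82 reads in AML spleen, 52 in AML BM, 10 in normal spleen and 29 in normal BM. These were levels of 425 CPM [338 to 528] in AML spleen, 185 CPM [139 to 243] in AML BM, 25.5 CPM [12.2 to 46.9] in normal spleen and 140 CPM [93.7 to 201] in normal BM. Both AML libraries were thus above both normal libraries, although the gap between AML BM and normal BM was within counting error.

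The first hairpins of the cluster gave few reads. The count of miR-379-5p was 14 in AML spleen, 13 in AML BM, 10 in normal spleen and 20 in normal BM, with no neighbouring pair of levels apart beyond counting error. For miR-411-5p it was 2 in AML spleen, 9 in AML BM, 4 in normal spleen and 5 in normal BM, again with no pair of neighbours apart.

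Among the members in Mirg, miR-382-5p had 0 reads in AML spleen, 3 in AML BM, 2 in normal spleen and 0 in normal BM, too few to compare. Levels of miR-409-3p were 20.7 CPM in AML spleen, 32.1 CPM in AML BM, 30.6 CPM in normal spleen and 67.5 CPM in normal BM, from 4 reads in AML spleen, 9 in AML BM, 12 in normal spleen and 14 in normal BM. Its highest library was therefore normal BM, with no neighbouring pair apart beyond counting error.

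The third member in Mirg, miR-541-5p, had 8 reads in AML spleen, 13 in AML BM, 18 in normal spleen and 0 in normal BM. Its levels of 41.5 CPM in AML spleen, 46.4 CPM in AML BM, and for normal spleen 45.9 CPM, lay close together. The 0 of normal BM was entered as 3 reads of that library. Relative to normal BM, the level was then 2.87-fold in AML spleen, 3.20-fold in AML BM and 3.17-fold in normal spleen. With the 0 kept, the log2 intervals of counting error had lower limits of 0.88 in AML spleen, 1.17 in AML BM and 1.22 in normal spleen.

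The AML spleen library had more of the region's 2 abundant miRNAs than the normal spleen library. The rule for a call was a ratio of scaled counts of 2 or more (0.5 or less when lower), an interval without 1, and 30 reads or more in the higher library. Over all miRNAs this rule called 46.3% of the 216 compared in AML spleen against normal spleen, 54 higher and 46 lower. Both members that could be compared, miR-127-3p and miR-381-3p, were higher in AML spleen, where the share of all miRNAs called higher was 25.0%. The level of miR-127-3p was 4.83-fold that of normal spleen (log2 2.27 [1.87 to 2.68]). For miR-381-3p the ratio was 16.7-fold, a log2 ratio of 4.06 [3.11 to 5.17], from 82 reads in AML spleen and 10 in normal spleen. The median log2 ratio was -0.25 over those of the 216 with reads in both libraries. At a minimum of 10 reads, 3 of 5 members compared were called, all higher, where the rule called 45.9% of 329 miRNAs in either direction.

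Pooled, the members reached 1482 CPM in AML spleen, against 334 CPM in normal spleen (log2 ratio 2.15 [1.85 to 2.46]). Without miR-127-3p the pooled ratio was 1.97 [1.50 to 2.46]. With miR-381-3p left out as well, the other 6 members had 28 reads in AML spleen and 47 in normal spleen (log2 0.28 [-0.45 to 0.98]). Of the 6, miR-379-5p had a log2 ratio of 1.51 [0.23 to 2.84], miR-411-5p one of 0.02, miR-541-5p one of -0.15 and miR-409-3p one of -0.56. The difference of the pooled reads thus lay mostly in 2 of the 8 members. The level of miR-379-5p was also higher beyond counting error, from 14 reads in AML spleen and 10 in normal spleen. Scaling moved every log2 ratio of this comparison by -0.24 with DESeq2 size factors, which called 51 miRNAs higher and 68 lower, and by 0.25 on total counts (64 higher and 36 lower). Neither ended the calls of the 2 members.

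**Figure D2:**
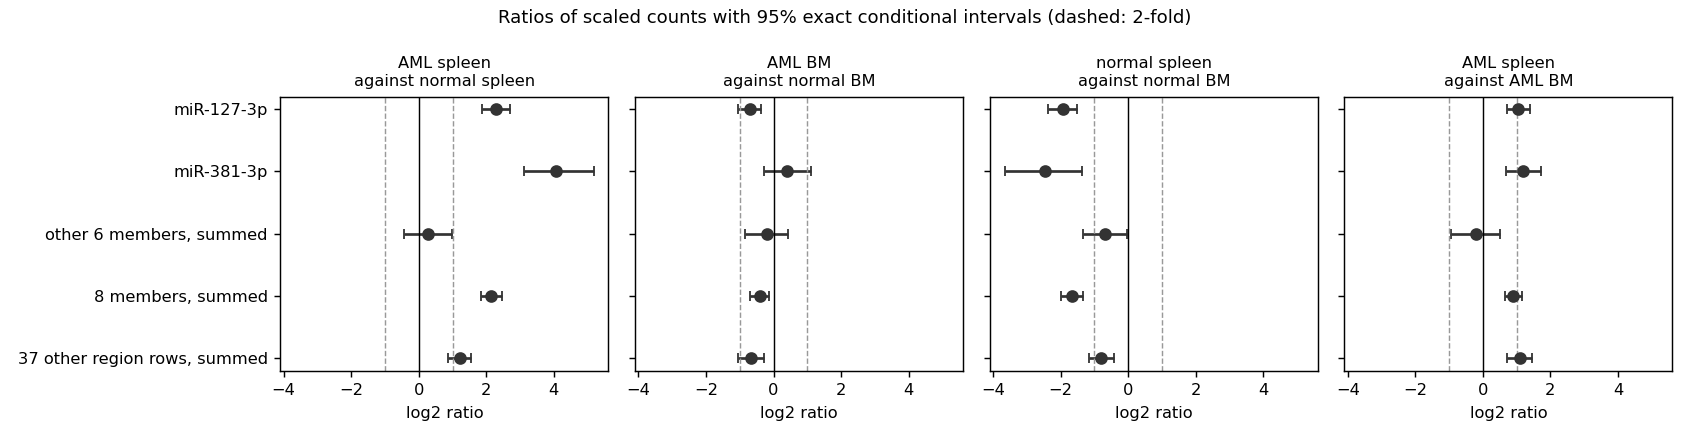
Log2 ratios of scaled counts with 95% exact conditional intervals in the 4 comparisons, for the 2 abundant members, the sum of the other 6, the sum of all 8 and the sum of the 37 other rows of the region, with dashed lines at 2-fold. In AML spleen against normal spleen miR-381-3p lies at 4.06 and miR-127-3p at 2.27, while the sum of the other 6 members lies at 0.28.

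In the bone marrow no member was called between AML and normal macrophages, where the rule called 25.5% of the 216 miRNAs compared, 29 higher (13.4%) and 26 lower. Scaling to totals that leave out the top 10 miRNAs gave 39 higher and 19 lower and moved every log2 ratio by 0.20. The level of miR-127-3p in AML BM was 0.611-fold that of normal BM (log2 -0.71 [-1.06 to -0.36]), which did not reach 2-fold. For miR-381-3p the log2 ratio was 0.41 [-0.28 to 1.12]. Pooled, the members reached 795 CPM in AML BM, against 1056 CPM in normal BM (log2 ratio -0.41 [-0.68 to -0.13]). Without miR-127-3p the pooled log2 ratio was 0.09 [-0.37 to 0.55]. Below 30 reads, miR-379-5p had a log2 ratio of -1.06 [-2.19 to 0.02] and miR-409-3p one of -1.07 [-2.46 to 0.24], and miR-411-5p stood at 0.41. With a minimum of 10 reads the rule called 29.4% of the 316 miRNAs compared. There miR-541-5p was the 1 member called, higher with 13 reads in AML BM and 0 in normal BM.

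Between the normal tissues 1 member had enough reads to be compared. This was miR-127-3p, which was called lower in normal spleen than in normal BM at 0.261-fold, a log2 ratio of -1.94 [-2.36 to -1.53]. The rule called 66.2% of 234 miRNAs here and 35.5% lower, so most miRNAs differed between these libraries. Just outside the minimum with 10 reads in normal spleen and 29 in normal BM, miR-381-3p stood at -2.46 [-3.66 to -1.38]. Also below 30 reads, miR-379-5p had a log2 ratio of -1.92 [-3.18 to -0.76] and miR-409-3p one of -1.14 [-2.38 to 0.08]. At a minimum of 10 reads 4 of 5 members were called, 3 lower and, for miR-541-5p, 1 higher, where 62.4% of 340 miRNAs were called. The pooled log2 ratio was -1.66 [-1.98 to -1.34]. Without miR-127-3p and miR-381-3p, the other 6 members had 47 reads in normal spleen and 40 in normal BM, with a log2 ratio of -0.69 [-1.33 to -0.04] that was not called. DESeq2 size factors moved all log2 ratios here by 0.24 and total counts by -0.16, with no change in the member called.

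Between the AML tissues the direction was the other way. AML spleen was called higher than AML BM for both members compared, at 2.06-fold for miR-127-3p, a log2 ratio of 1.04 [0.70 to 1.39], and 2.29-fold for miR-381-3p, a log2 ratio of 1.20 [0.68 to 1.73]. Of 211 miRNAs 35.1% were called and 13.7% were higher. Both members lay just inside the 2-fold limit, and the pooled members just outside it at 1.86-fold, a log2 ratio of 0.90 [0.64 to 1.16]. At a minimum of 10 reads the same 2 of 4 members were called, where 35.4% of 319 miRNAs were. The other 6 members together had 28 reads in AML spleen and 47 in AML BM, a log2 ratio of -0.21 [-0.94 to 0.50]. Each library enters 2 of the 4 comparisons, so their ratios are not independent of one another.

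In an additive model with tissue and AML as terms, edgeR's quasi-likelihood test called 0 of 246 miRNAs for AML (0 at an unadjusted p under 0.05) and 0 for tissue (15 unadjusted). For AML, DESeq2 and limma-trend called 0 as well. For tissue they called 8 and 0. The AML term of miR-381-3p was 2.33 on the log2 scale, with an adjusted p of 0.996 in edgeR. The single miRNA below an unadjusted 0.05 for AML in limma-trend was miR-381-3p, with an adjusted p of 0.998 in limma-trend. The AML term of miR-127-3p was 0.94 (adjusted p = 0.996, edgeR). The model leaves 1 residual degree of freedom, so a tissue-dependent AML effect enters its error.

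Within a library, the balance of miR-381-3p and miR-127-3p differed between AML and normal in both tissues. This quotient does not depend on scaling, and it was chosen after the values were seen. There were 46.6 reads of miR-381-3p per 100 of miR-127-3p in AML spleen [35.4 to 60.9] and 41.9 in AML BM [29.7 to 58.4], against 13.5 in normal spleen [6.22 to 26.3] and 19.3 in normal BM [12.5 to 28.9]. The quotient was 3.45-fold higher in AML spleen than in normal spleen [1.66 to 7.85] and 2.17-fold higher in AML BM than in normal BM [1.26 to 3.76]. Between tissues it was 1.11-fold in AML spleen against AML BM [0.718 to 1.73] and 0.699-fold in normal spleen against normal BM [0.288 to 1.58], both with intervals that include 1. The intervals cover counting error only, and with 1 library per group the variation of the quotient between mice is not known.

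**Figure D3:**
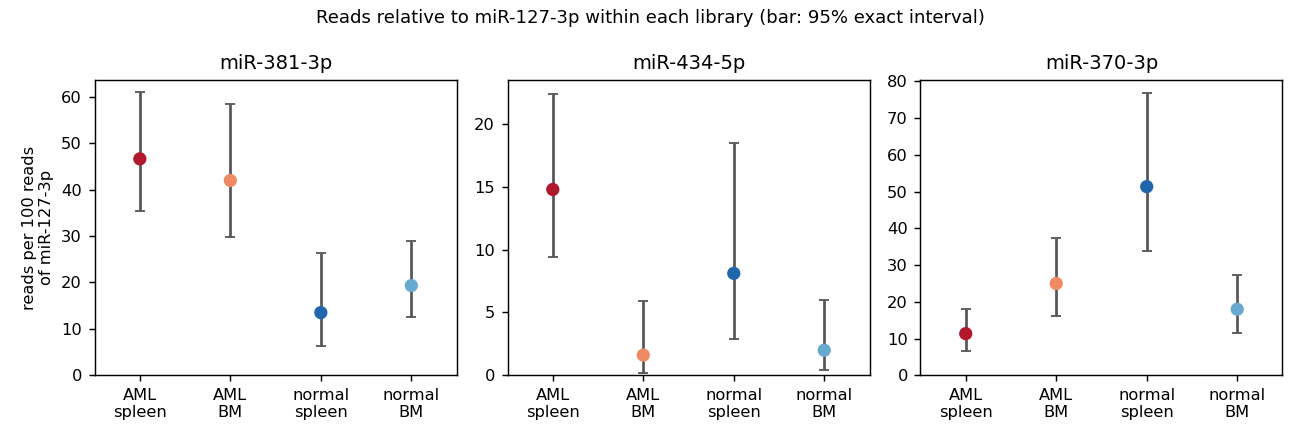
Reads of miR-381-3p, miR-434-5p and miR-370-3p per 100 reads of miR-127-3p within each library, with 95% exact intervals of counting error. For miR-381-3p the 2 AML libraries (46.6 and 41.9) lie above the 2 normal libraries (13.5 and 19.3), whereas miR-370-3p is highest in normal spleen (51.4).

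As shares of the pooled members, miR-381-3p made up 28.7% in AML spleen, 23.3% in AML BM, 7.63% in normal spleen and 13.2% in normal BM. The share of miR-127-3p was 61.5% in AML spleen, 55.6% in AML BM, 56.5% in normal spleen and 68.5% in normal BM. In normal spleen miR-541-5p (13.7%) and miR-409-3p (9.16%) together outnumbered miR-381-3p. In AML spleen the same miRNAs made up 2.80% and 1.40%.

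In the wider region, too, AML spleen had the highest summed level. The list of 59 hairpin names had 45 rows in the table, from 36 hairpins, and the 37 rows that are not members held 149 reads in AML spleen, 102 in AML BM, 131 in normal spleen and 120 in normal BM. Their summed level was 772 CPM in AML spleen, 364 CPM in AML BM, 334 CPM in normal spleen and 579 CPM in normal BM. Between AML BM and normal spleen this sum did not differ beyond counting error, at a log2 ratio of 0.12 [-0.27 to 0.51], where the pooled members stood at 1.25 [0.93 to 1.57]. The sum was 2.31-fold higher in AML spleen than in normal spleen (log2 1.21 [0.86 to 1.56]), and stood at -0.67 [-1.06 to -0.28] in AML BM against normal BM. Among the 37 rows, 33 had under 30 reads over the 4 libraries and 21 under 10. At the minimum of 30 reads, 1 of them could be compared in AML spleen against normal spleen and was not called. At a minimum of 10 reads 7 could be compared, of which 5 were higher and 1 lower, against the same 45.9% of 329 miRNAs called in either direction. The 5 include miR-127-5p and miR-434-5p, from hairpins of members. They also include miR-136-3p and miR-3071-5p, which may hold the same reads, as described below.

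Of the 4 other rows with at least 30 reads in all, miR-370-3p, which lies in an intron of Rian, was even across the libraries. It had 20 reads in AML spleen, 31 in AML BM, 38 in normal spleen and 27 in normal BM, and no log2 ratio of the 4 comparisons lay beyond -0.43 or 0.10. The profile of this maternal miRNA therefore differed from that of miR-127-3p: per 100 reads of miR-127-3p there were 11.4 of miR-370-3p in AML spleen and 51.4 in normal spleen, a quotient of 0.221 [0.114 to 0.422]. Opposite Rtl1, miR-433-3p had 0 reads in AML spleen, 12 in AML BM, 22 in normal spleen and 5 in normal BM. Entered as 3 reads, the 0 of AML spleen puts the ratio to normal spleen at 0.277. With the 0 kept, the log2 interval of that ratio had an upper limit of -1.43. Between Meg3 and Rtl1, miR-493-5p had 14 reads in AML spleen, 6 in AML BM, 4 in normal spleen and 6 in normal BM (log2 2.83 [1.16 to 4.89] in AML spleen against normal spleen). The fourth row is miR-434-5p, described above.

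By segment, the 7 rows on the miR-127 side, opposite or overlapping Rtl1, summed to 1234 CPM in AML spleen, 517 CPM in AML BM, 275 CPM in normal spleen and 863 CPM in normal BM. The 30 rows from miR-379 to miR-410 summed to 777 CPM in AML spleen, 460 CPM in AML BM, 224 CPM in normal spleen and 550 CPM in normal BM. These sums hold the members, which set most of them. Without the members, the miR-127 side summed to 321 CPM in AML spleen, 74.9 CPM in AML BM, 84.2 CPM in normal spleen and 135 CPM in normal BM, so that AML BM was lowest. The miR-379 to miR-410 rows without the members summed to 207 CPM in AML spleen, 107 CPM in AML BM, 81.6 CPM in normal spleen and 222 CPM in normal BM, where normal BM was highest. The 2 rows in Rian lay between 111 and 140 CPM in every library.

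**Figure D4:**
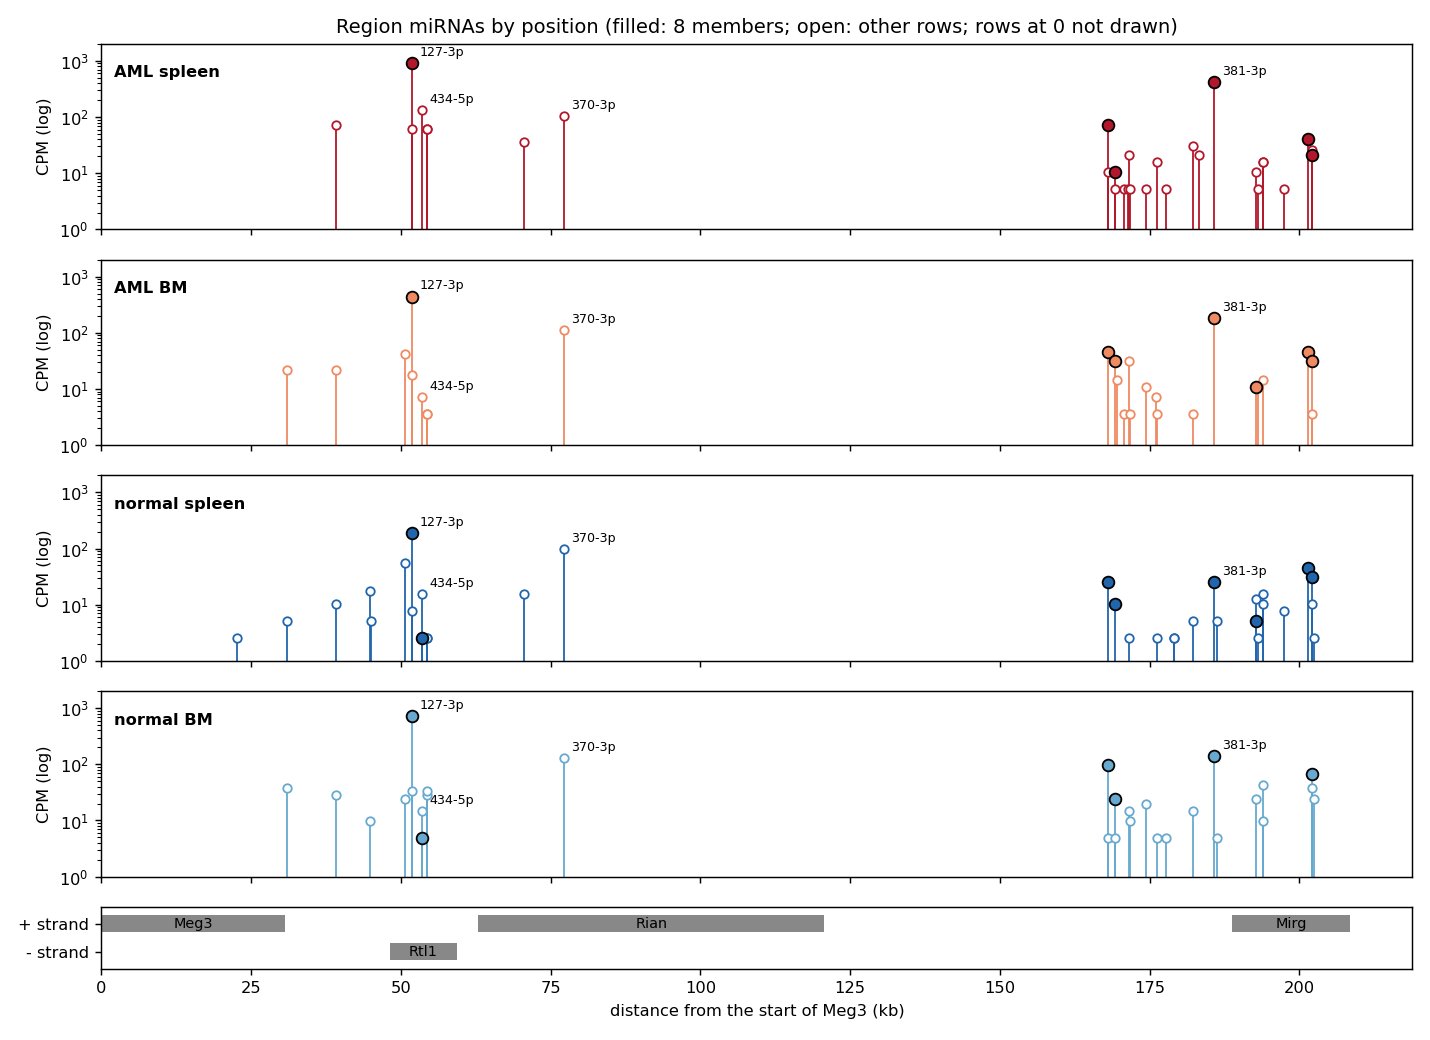
Level (CPM, log axis) of the region's miRNA rows against distance from the start of Meg3 in kb, 1 panel per library, with the Meg3, Rtl1, Rian and Mirg genes below. Filled points are the 8 members and open points other rows. Rows at 0 are not drawn, and miR-1247 near Dio3 lies outside the window. In each library miR-127-3p is the tallest point; miR-381-3p is next in 3 of them, and in normal spleen it (25.5 CPM) lies below miR-370-3p in Rian (96.9 CPM).

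A pair of rows opposite each other at Rtl1 held nearly equal counts. The mature sequences of miR-136-3p (plus strand) and miR-3071-5p (minus strand) overlap by 19 bases and are shown for that reason, with the seed in capitals.
miR-136-3p: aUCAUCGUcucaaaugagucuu
miR-3071-5p: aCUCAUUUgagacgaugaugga
Their counts were 12 and 12 in AML spleen, 1 and 1 in AML BM, 1 and 1 in normal spleen, and 7 and 6 in normal BM, with miR-136-3p first. The same reads may thus stand in both rows, which was not tested, and the sums of the region and of its miR-127 side may hold them more than once. Neither miR-127-3p nor miR-381-3p had a row with counts within 2 reads or 3% in all 4 libraries.

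Among markers of other cell types, the stromal and endothelial list and the muscle list were, like the members, lowest in normal spleen. So was the neuronal list, by a smaller margin. The 9 stromal and endothelial miRNAs, among them miR-143-3p, miR-199a and miR-126a, all had reads in every library, and their summed level was 22235 CPM in AML spleen, 22257 CPM in AML BM, 3662 CPM in normal spleen and 32236 CPM in normal BM. In AML spleen against normal spleen 6 of 6 compared were called higher, against 25.0% of all miRNAs compared, with a median log2 ratio of 2.67. In AML spleen against AML BM, where both members compared were higher, 0 of 7 were called and the median was -0.06. There 13.7% of all miRNAs compared were called higher. At a minimum of 10 reads 1 of 9 was called, higher. The 4 muscle miRNAs summed to 12279 CPM in AML spleen, 10535 CPM in AML BM, 2316 CPM in normal spleen and 35819 CPM in normal BM, with none at 0. Of the muscle miRNAs compared, 3 of 3 were called higher in AML spleen against normal spleen, and 1 of 3 in AML spleen against AML BM. The lymphocyte sum of 5 miRNAs ran the other way in spleen, with 45797 CPM in AML spleen against 104960 CPM in normal spleen. In bone marrow this sum was 42956 CPM in AML BM against 16810 CPM in normal BM. Most of its spleen reads were miR-181a-5p, with 6378 of 8836 in the AML library and 28642 of 41154 in the normal one. Of the 5 rows compared between the spleen libraries, 4 were called lower with AML. The exception was miR-150-3p, which was not called and stood higher with AML (2493 CPM) than without (1892 CPM). The 6 neuronal miRNAs summed to 2866 CPM in AML spleen, 3837 CPM in AML BM, 2492 CPM in normal spleen and 3019 CPM in normal BM. These sums came from rows that ran in different directions. Among them miR-9-5p was at 1389 CPM in AML spleen, 606 CPM in AML BM, 235 CPM in normal spleen and 1379 CPM in normal BM, and miR-128-3p at 1384 CPM in AML spleen, 3185 CPM in AML BM, 2160 CPM in normal spleen and 1509 CPM in normal BM. Of the same list miR-124-3p, their defining member, had 5 reads in AML spleen and none in the other 3 libraries. The 4 erythroid miRNAs summed to between 7664 and 9784 CPM, also from rows that ran in different directions. Of this list miR-451a was at 1840 CPM in AML spleen, 1152 CPM in AML BM, 474 CPM in normal spleen and 5126 CPM in normal BM. In contrast, miR-486a-5p was at 6945 CPM in AML spleen, 6344 CPM in AML BM, 8840 CPM in normal spleen and 4403 CPM in normal BM. With few reads, miR-144-3p had 2 in AML spleen and 25 in normal spleen, and miR-144-5p had 9 in AML spleen and 4 in normal spleen.

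Per 1000 reads of the stromal and endothelial list, the pooled members had 66.7 reads in AML spleen, 35.7 in AML BM, 91.2 in normal spleen and 32.8 in normal BM. This quotient was 0.731-fold in AML spleen against normal spleen [0.587 to 0.914] and 1.09-fold in AML BM against normal BM [0.898 to 1.32]. Against the macrophage and myeloid list it was 4.15-fold in AML spleen against normal spleen [3.36 to 5.15] and 1.07-fold in AML BM against normal BM [0.880 to 1.30]. With miR-21a-5p left out of that list, an alternative chosen after seeing the data, the quotient was 15.8-fold in AML spleen against normal spleen [12.7 to 19.7] and 0.453-fold in AML BM against normal BM [0.367 to 0.558]. The part of other cells in the members' levels was not tested, and in sorted bulk RNA a different number of cells of a type and a different amount of RNA per cell cannot be told apart.

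**Figure D5:**
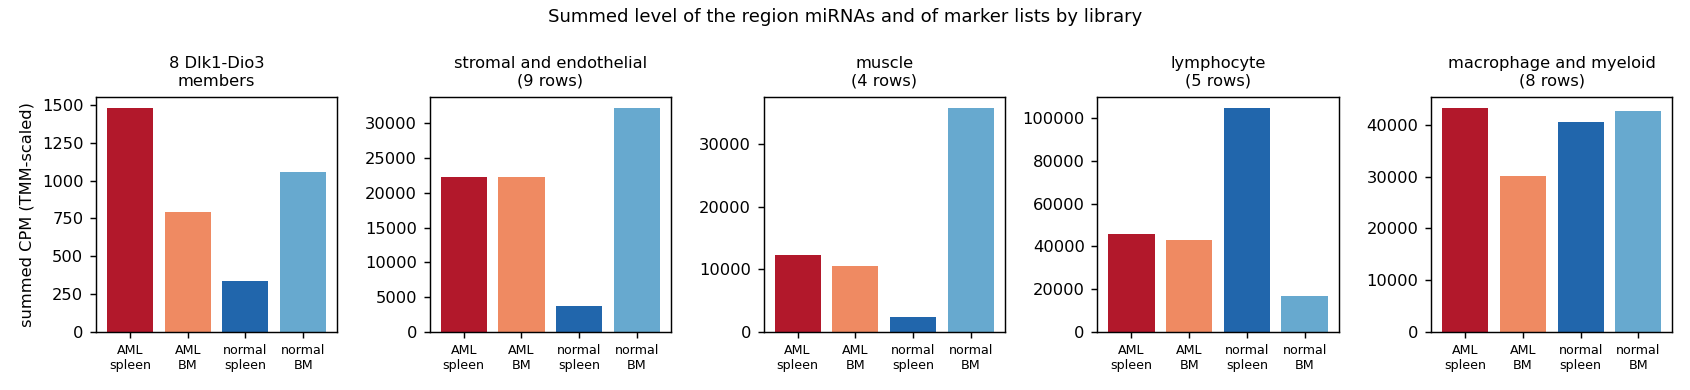
Summed CPM of the 8 members and of 4 marker lists in each library (bars from 0, axes differ between panels). Normal spleen is lowest for the members (334 CPM), the stromal and endothelial list (3662 CPM) and the muscle list (2316 CPM), and highest for the lymphocyte list; miR-21a-5p holds from 32.4% to 91.0% of the macrophage and myeloid bars.

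Outside the region, the profiles most like that of the pooled members were those of miR-99b-5p, miR-21a-5p, miR-34c-5p, miR-881-3p and miR-9-5p. Likeness was the root mean square difference of log2 CPM around its mean over the 4 libraries, among 206 miRNAs with at least 100 reads. It was 0.26 for miR-99b-5p, 0.27 for miR-21a-5p, 0.29 for miR-34c-5p, 0.32 for miR-881-3p and 0.34 for miR-9-5p, against a median of 0.98 over all candidates. Of these, miR-21a-5p is also on the macrophage and myeloid list and miR-9-5p on the neuronal list. The closest, miR-99b-5p, stood at 586 CPM in AML spleen, 449 CPM in AML BM, 204 CPM in normal spleen and 646 CPM in normal BM. For miR-381-3p alone the closest was miR-881-3p at 0.45, followed by the stromal miR-145a-5p at 0.55.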

How the data were processed

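Per the file headers, the authors' table gives a read count for each miRNA in 4 libraries, and TPM values, which per the file headers carry that name and equalled count per library total times 1000000. For aligner, counting tool, genome build and annotation: not given in the sources used here. All 847 rows (804 known names, 43 others) entered TMM scaling (edgeR 4.0.16, R 4.3.3), with factors of 1.07, 1.03, 0.900 and 1.00 for AML spleen, AML BM, normal spleen and normal BM. Ratios of scaled counts have 95% exact conditional intervals. An additive model of tissue and AML covered the 246 miRNAs whose highest count was 30 or more (edgeR quasi-likelihood, Benjamini-Hochberg), with DESeq2 1.42.0 and limma 3.58.1 (prior count 2) as alternatives. Both procedures were tested on simulated data. For the additive model the simulated dispersion was below the 0.417 fitted here, and the simulated AML effect was the same in both tissues. That simulation therefore does not measure the model's power in these data. Named were all members, other region rows with at least 30 counts in all, and the 5 profiles most like the pooled members. Outside this rule, miR-127-5p, miR-136-3p, miR-3071-5p, miR-300-3p and the profiles most like miR-381-3p were chosen after their values were seen. Members, lists and rules were chosen with earlier results of these data known. Sequences are from RefSeq and host genes from GENCODE M21, both GRCm38.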

Additional observations from a re-analysis of the deposited data

Results flagged for a closer look

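The AML effect differed in direction between the tissues for miR-127-3p, with a log2 ratio of 2.27 in AML spleen against normal spleen and -0.71 in AML BM against normal BM, both with intervals that exclude 0. The spleen effect minus the BM effect was 2.98 (interval of counting error 2.46 to 3.50). For the pooled members the ratios were 2.15 and -0.41 and the difference 2.56 (2.16 to 2.96). The pooled decrease in BM rested on miR-127-3p. Without it the pooled ratios were 1.97 [1.50 to 2.46] in spleen and 0.09 [-0.37 to 0.55] in BM. With 1 library per group the difference was not tested against variation between mice. The level of the stromal and endothelial list moved the same way as miR-127-3p, at 22235 CPM in AML spleen against 3662 CPM in normal spleen and 22257 CPM in AML BM against 32236 CPM in normal BM, and its part was not tested.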

How the results depend on the processing

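With total counts, DESeq2 size factors or totals without the 10 most abundant miRNAs, no call changed among the pooled ratios and the counts of members called. Among the 23 ratios of single members with reads in both libraries, only ratios of miR-127-3p and miR-381-3p had enough reads for a call. None of those calls changed. The rest had too few reads under every scaling, since the minimum applies to unscaled reads, so they could not change. Ratios of members with too few reads for a call did cross 2-fold: in AML BM against normal BM miR-379-5p stood at -0.86 and miR-409-3p at -0.88 without the 10 most abundant miRNAs, and in normal spleen against normal BM miR-409-3p stood at -0.91 with DESeq2 size factors and -0.96 without the 10, and miR-434-3p at -1.08 on total counts. In AML spleen against normal spleen the uncalled ratios near 0 changed sign, to -0.22 for miR-411-5p with DESeq2 size factors and 0.10 for miR-541-5p on total counts. The count minimum mattered more: with at least 10 counts or no minimum, 1 member was called in AML BM against normal BM (0 in the main setting) and 4 in normal spleen against normal BM (1 in the main setting). Summing the 37 other region rows, an alternative chosen after seeing the data, gave -0.79 in normal spleen against normal BM, no longer 2-fold, and 1.09 in AML spleen against AML BM, now past 2-fold. The cause was not tested. DESeq2 called 8 miRNAs for tissue where edgeR called 0. No paired analysis was possible because the labels tie no libraries to the same mouse or replicate. The additive model does compare AML with normal within tissue. Depth limits 6 of the 8 members, which had under 30 reads in every library.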
